A study of Gallus gallus with 9 samples.

Results

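The chick cornea at embryonic day 7 (E7), taken as corneal endothelium together with the keratocytes of the stroma, was compared with the periocular neural crest at embryonic day 3 (E3), the mesenchyme around the eye from which both cell types descend. The comparison uses 6 of the 9 RNA-seq libraries of a developmental series in Gallus gallus, 3 per stage. They were taken by their labelled stage and tissue, with earlier results of these data known. The other 3 libraries, labelled E5 corneal endothelium, lent their spread to the statistical fit. Each group is defined by tissue and day alone, and the labels give no strain, allele or treatment for any of them and do not say whether a library holds 1 embryo or a pool. P-values therefore measure the spread between libraries, which may be technical. The E7 tissue is labelled as 2 cell types, in proportions that were not measured. Markers of other cell types, given below, were also read in it. A gene's level in it is therefore a mixture, and fewer cells of a type and less RNA per cell cannot be told apart.

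Neural crest cells leave the dorsal neural tube under factors such as SOX10, FOXD3 and PAX3, and those that gather around the optic cup become periocular mesenchyme, marked by forkhead and EYA factors. In the chick a first wave of these cells enters between lens and ectoderm and forms the corneal endothelium, a monolayer that later pumps water out of the stroma. A later wave enters the collagen matrix and becomes keratocytes, which lay down thin collagen fibrils spaced by keratan sulfate proteoglycans such as keratocan and lumican, and this spacing is what makes the stroma transparent.

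One E7 library stood apart and is given separately throughout. Library totals ran from 9874339 expected counts in E7 library 1 to 22055958 in E3 library 3, with 13740392 in E7 library 2 and 11376153 in E7 library 3. Log2 CPM is a count scaled to the library total times a trimmed-mean (TMM) factor. Summed CPM, given below, is scaled to the library total alone. Over 11727 tested genes, log2 CPM of E7 libraries 1 and 2 correlated at r = 0.949, and that of E7 library 3 with them at 0.893 and 0.907. The E3 libraries correlated among themselves at 0.973 to 0.974 (Pearson, across genes, which are not independent replicates). E7 library 3 correlated at 0.965 and 0.961 with E5 libraries 1 and 2, and E5 library 3 at 0.952 and 0.959 with E7 libraries 1 and 2. E7 library 3 lay more than 1 log2 unit outside the range of the other 2 E7 libraries in 1608 genes (13.7%), 627 above (5.35%) and 981 below (8.37%). The same count was 528 (4.5%) for E7 library 1, 367 (3.13%) for E7 library 2 and 219 to 233 (1.87% to 1.99%) for the E3 libraries. Whether library 3 of E7 and library 3 of E5 carry each other's label was not tested. The labels were kept, so that E7 library 3 means the library so labelled, and every mean, fold change and call at E7 includes it unless it is said to be left out. Where it departed in this way from E7 libraries 1 and 2, the test of a gene is followed in most cases by its value without it. That fit keeps E5 library 3, and the groups share their spread in the test. Its adjusted p can therefore stay high in genes that split the E5 and E7 libraries. For some genes the value without library 3 of both E7 and E5 is added, a choice made with their likeness known.

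**Figure D1:**
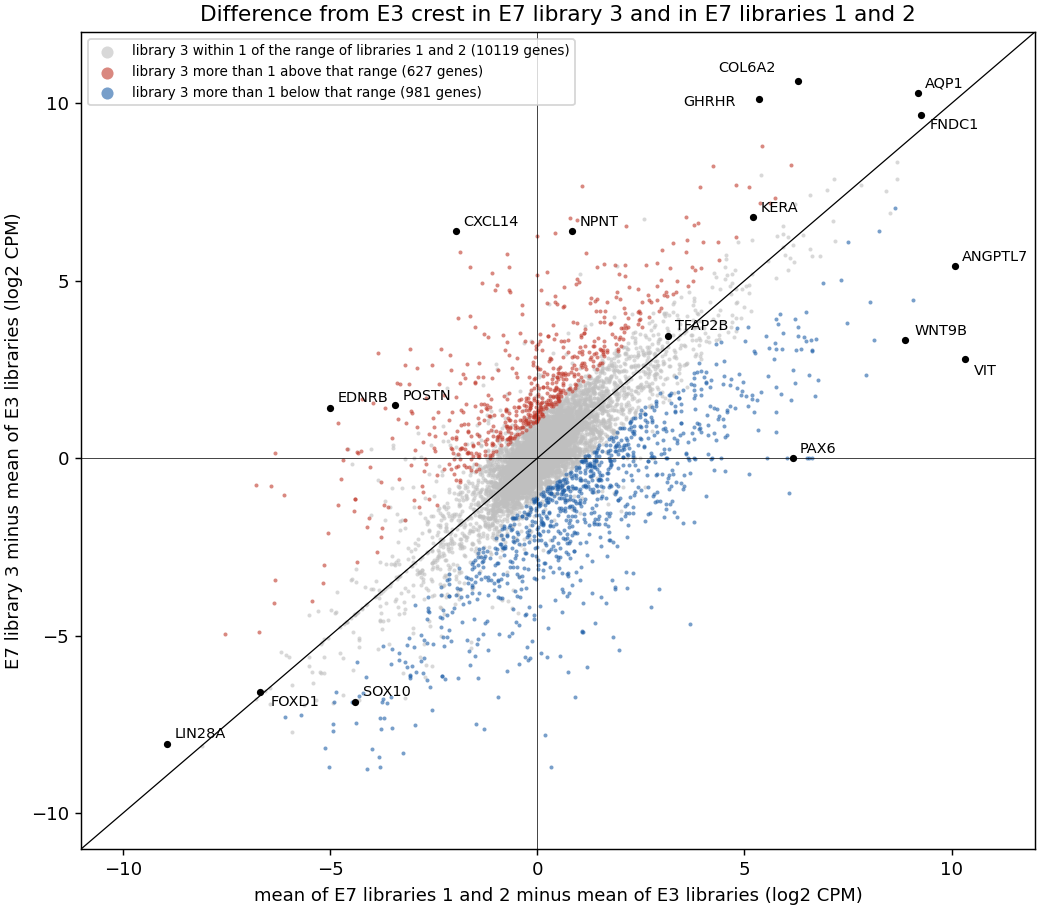
Each point is 1 of the 11727 tested genes, placed by the difference from the mean of the E3 libraries in log2 CPM, on the x axis for the mean of E7 libraries 1 and 2 and on the y axis for E7 library 3, with the line of equality drawn. The 627 red genes lie more than 1 log2 unit above the range of E7 libraries 1 and 2 in E7 library 3 and the 981 blue genes more than 1 below it, while FOXD1, LIN28A, FNDC1 and TFAP2B lie near the line.

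The labels were set against genes known for the tissues. Keratocan (KERA), the keratocyte proteoglycan, read 28.5, 22.7 and 19.3 FPKM at E3 and 816, 632 and 1952 at E7, with values here and below in the order of libraries 1, 2 and 3. FPKM is a level scaled by transcript length and by library size. Every E7 library was above every E3 library, with E7 library 3 the highest. Aquaporin 1 (AQP1), the water channel of corneal endothelium, read 0.48, 1.2 and 1.03 FPKM at E3 and 547, 545 and 1085 at E7, again with no overlap. SOX10, the factor of migrating neural crest, read 17.2, 14.5 and 16.7 FPKM at E3 and 1, 0.45 and 0.1 at E7, and FOXD3, which specifies the crest, read 8.26, 8.76 and 10.8 FPKM at E3 and 0.28, 0.05 and 0 at E7. Both were highest in the 3 libraries labelled crest. KERA and AQP1 were also high in the E5 libraries, labelled corneal endothelium, and do not set E7 apart from them. KERA read 1803, 1685 and 601 FPKM there, and AQP1 1080, 1080 and 524.

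Of the 11727 genes tested between E7 and E3, 2027 (17.3%) were higher at E7 and 1927 (16.4%) lower, 3954 (33.7%) in all, at an adjusted p below 0.05 in edgeR's quasi-likelihood test. With a change of at least 1 log2 unit required, 1205 (10.3%) were higher and 565 (4.82%) lower. The 3 E7 libraries did not overlap the 3 E3 libraries in 6261 genes (53.4%), 3123 (26.6%) above and 3138 (26.8%) below, so that separation of the groups was common among all genes. Without E7 library 3, 1924 (16.1%) of 11950 tested genes were higher and 1759 (14.7%) lower, and 3236 genes were called in the same direction with and without it, with 718 lost and 422 gained. Without library 3 of both E7 and E5, 2582 (21.6%) of 11960 tested genes were higher and 2511 (21%) lower, shares against which the counts of lists in that fit are to be read. Without E3 library 2 the counts were 1328 higher and 1250 lower. The direction of a small change depends on the scaling: 51.3% of calls were higher with trimmed-mean (TMM) scaling, where the median gene stood at 0.04, and 38.6% with library size alone, where it stood at -0.10.

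The 10 rises ranked largest at E7 were in genes of the endothelium, the matrix and WNT signalling, among others. Only called genes with a mean of at least 10 FPKM in the higher group and no overlap of libraries were ranked. AQP1 rose (log2 fold change 9.77 ± 0.62, adjusted p = 3.05e-05, and 9.30 with adjusted p = 3.72e-05 without E7 library 3). Here and below ± is an approximate standard error worked back from the test. It is the log2 fold change without its sign, divided by the square root of the test's F value. Fibronectin type III domain containing 1 (FNDC1) read 0.17, 0.2 and 0.19 FPKM at E3 and 109, 129.6 and 146 at E7. The E7 libraries lay close together for FNDC1, which rose (log2 fold change 9.54 ± 0.25, adjusted p = 5.17e-07). COL6A2, a chain of the microfibril-forming type VI collagen, read 0.61, 0.67 and 0.56 FPKM at E3 and 41.3, 53.2 and 874 at E7. E7 library 3 was far above the other E7 libraries, and COL6A2 rose (log2 fold change 9.23 ± 1.83, adjusted p = 0.00656, and 6.36 with adjusted p = 0.00552 without E7 library 3). The WNT ligand WNT6 read 0.14, 0.03 and 0.23 FPKM at E3 and 72.8, 72 and 37.7 at E7 and rose (log2 fold change 9.04 ± 0.57, adjusted p = 2.98e-05). Every E7 library exceeded every E3 library in all 4 of these genes, which the ranking required.

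The other 6 of these rises were uneven among the E7 libraries. The growth hormone releasing hormone receptor, GHRHR, read 0, 0 and 0 FPKM at E3 and 2.3, 3.22 and 71.2 at E7. It was far highest in E7 library 3 and was at least 825-fold higher at E7 in counts summed over the group (adjusted p = 0.0355, and 0.058 without E7 library 3), a call lost without E3 libraries 1, 2 or 3, E5 libraries 1 or 2 or E7 library 3 (adjusted p up to 0.0819). Without library 3 of both E7 and E5 the adjusted p of GHRHR was 0.000126. Vitrin (VIT), an extracellular matrix protein, read 0, 0 and 0 FPKM at E3 and 42.2, 26.4 and 0.22 at E7 and was at least 1930-fold higher at E7 in counts summed over the group (adjusted p = 0.0395, and 0.0216 without E7 library 3), a call lost without E3 libraries 1, 2 or 3 or E7 libraries 1 or 2 (adjusted p up to 0.0907). Here E7 library 3 was the lowest. ANGPTL7, an angiopoietin-like secreted protein, read 0, 0.03 and 0.02 FPKM at E3 and 47, 26.4 and 1.27 at E7 and rose (log2 fold change 10.65 ± 2.14, adjusted p = 0.00691, and 11.21 with adjusted p = 0.00356 without E7 library 3). HSD17B2, which oxidizes estradiol, read 0, 0.02 and 0.03 FPKM at E3 and 34.4, 15.2 and 0.85 at E7 and rose (log2 fold change 9.70 ± 2.28, adjusted p = 0.0131, and 10.26 with adjusted p = 0.00852 without E7 library 3), a call lost without E3 libraries 1, 2 or 3 (adjusted p up to 0.055). Both kept the order of the E7 libraries seen for VIT. AGR2, a protein disulfide isomerase of secretory epithelia, read 0, 0.06 and 0 FPKM at E3 and 36.8, 14.5 and 4.23 at E7 and was 921-fold higher at E7 in counts summed over the group, with an exact 95% counting interval of 165 to 36400 (adjusted p = 0.00594, and 0.00657 without E7 library 3). WNT9B read 0.02, 0.02 and 0.03 FPKM at E3 and 31.1, 13.8 and 0.39 at E7 and rose (log2 fold change 9.36 ± 2.54, adjusted p = 0.0236, and 9.93 with adjusted p = 0.015 without E7 library 3), a call lost without E3 libraries 1, 2 or 3 (adjusted p up to 0.0853). These 5 genes, from VIT to WNT9B, were highest in E7 library 1 and lowest in E7 library 3, an order that the summed markers of corneal epithelium shared (CPM 171 to 173 in the E3 libraries and 1106, 601 and 113 in the E7 libraries). The part of epithelial RNA in these 5 genes was not tested.

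The 10 falls ranked largest by the same rule included regulators of the early embryo and of the crest. LIN28A, an RNA-binding protein that blocks let-7 maturation, read 34.5, 34.7 and 50.8 FPKM at E3 and 0, 0 and 0.06 at E7 and was 2110-fold lower at E7 in counts summed over the group, with an exact 95% counting interval of 379 to 83500 (adjusted p = 1.2e-05). The secreted BMP and Nodal antagonist CER1 read 19.4, 17.3 and 12.8 FPKM at E3 and 0.11, 0 and 0 at E7 and was 506-fold lower at E7 in counts summed over the group, with an exact 95% counting interval of 90.5 to 20000 (adjusted p = 0.000673). Neither reached 1 FPKM in any E7 library. EPHA4, a receptor of the ephrin guidance cues, read 26.4, 22.4 and 20.4 FPKM at E3 and 0.25, 0.31 and 0.09 at E7 and fell (log2 fold change -6.53 ± 1.12, adjusted p = 0.0035, and -6.21 with adjusted p = 0.00859 without E7 library 3). Protogenin (PRTG), a membrane protein of the early neural tube and crest, read 30.2, 31.5 and 31 FPKM at E3 and 0.36, 0.89 and 0.21 at E7 and fell (log2 fold change -5.84 ± 0.49, adjusted p = 0.000125). The forkhead factor FOXF2 read 11.4, 10.5 and 10.9 FPKM at E3 and 0.32, 0.17 and 0.1 at E7 and fell (log2 fold change -5.69 ± 0.49, adjusted p = 0.000152). For each of these 5 genes all E7 libraries lay below 1 FPKM and all E3 libraries above 10. The ranking itself required a mean of at least 10 FPKM at E3 and no overlap of libraries. The other 5 were FOXD1, FOXL2, FOXD2, SIX2 and PAX3, described with the transcription factors.

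Most genes listed for the stroma's proteoglycans rose at E7. The lists here and below were chosen with earlier results of these data known, so their shares describe them and test nothing. Of the 21 genes listed, 20 were tested, of which 14 (70%) rose and 1 (5%) fell, with a median log2 fold change of 2.19, against 17.3% and 16.4% of all tested genes. The shares of every list below are to be read against the same values. OGN (mimecan), a small leucine-rich proteoglycan, read 3.7, 5.02 and 3.14 FPKM at E3 and 255, 256 and 1039 at E7 and rose (log2 fold change 7.20 ± 0.93, adjusted p = 0.00101, and 6.11 with adjusted p = 0.000796 without E7 library 3). KERA rose (log2 fold change 5.93 ± 0.67, adjusted p = 0.000554, and 5.21 with adjusted p = 0.000529 without E7 library 3). Decorin (DCN), which binds collagen fibrils and limits their width, read 86.7, 103 and 88 FPKM at E3 and 718, 462 and 1694 at E7 and rose (log2 fold change 3.54 ± 0.66, adjusted p = 0.00509, and 2.77 with adjusted p = 0.00864 without E7 library 3). E7 library 3 was the highest library for all 3 of these proteoglycans. Epiphycan (EPYC) rose from a low level, with 0.33, 0.21 and 0.22 FPKM at E3 and 6.12, 11.1 and 20.5 at E7 (log2 fold change 5.79 ± 0.87, adjusted p = 0.00205, and 5.19 with adjusted p = 0.00435 without E7 library 3). Podocan (PODN), another small leucine-rich proteoglycan, read 0, 0 and 0 FPKM at E3 and 8.04, 7.96 and 2.46 at E7 and was at least 696-fold higher at E7 in counts summed over the group (adjusted p = 0.00129, and 0.00158 without E7 library 3). In all 5 genes the E7 libraries lay above the E3 libraries, and in PODN E7 library 3 was the lowest of them.

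Lumican (LUM), the other main keratan sulfate proteoglycan of the stroma, was already abundant in the E3 libraries. It read 374, 339.8 and 336 FPKM at E3 and 554, 525 and 1574 at E7. The groups did not overlap, yet LUM did not pass the test (log2 fold change 1.51 ± 0.55, adjusted p = 0.0672, and 0.73 with adjusted p = 0.232 without E7 library 3). Without library 3 of both E7 and E5 the log2 fold change of LUM was again 0.73, with adjusted p = 0.000726. Prolargin (PRELP) read 16.3, 13.4 and 16.4 FPKM at E3 and 5.31, 7.48 and 22 at E7 and did not pass either (log2 fold change -0.24 ± 0.56, adjusted p = 0.772, and -1.16 with adjusted p = 0.061 without E7 library 3), with E7 libraries 1 and 2 below the E3 libraries and E7 library 3 above them. UGDH, which makes the UDP-glucuronate used in glycosaminoglycan chains, read 65.5, 63.6 and 61.8 FPKM at E3 and 31.8, 28.8 and 44.2 at E7 and fell (log2 fold change -0.72 ± 0.23, adjusted p = 0.0425), a call lost without E3 libraries 1, 2 or 3, E5 libraries 1 or 2 or E7 libraries 1 or 2 (adjusted p up to 0.121). It was the list's 1 call in that direction. Of the enzymes that build keratan sulfate, mentioned after their values were seen, the N-acetylglucosaminyltransferase B3GNT7 read 0.69, 0.64 and 0.46 FPKM at E3 and 8.66, 7.61 and 51.4 at E7 and rose (log2 fold change 5.42 ± 1.06, adjusted p = 0.00615, and 3.87 with adjusted p = 0.0068 without E7 library 3). The sulfotransferase CHST1 read 1.08, 0.84 and 0.81 FPKM at E3 and 8.38, 7.06 and 21.2 at E7 and rose (log2 fold change 3.91 ± 0.50, adjusted p = 0.00101, and 3.18 with adjusted p = 0.000333 without E7 library 3). Both were again highest in E7 library 3. That library departed from E7 libraries 1 and 2 in 15 of the 20 tested members (14 above, 1 below). The list's summed CPM was 1793 to 1940 in the E3 libraries and 6353, 5318 and 15770 in the E7 libraries. In the E5 libraries it was 15150, 13670 and 5036, so a high sum is shared with E5. 12 members rose and 1 fell without E7 library 3.

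**Figure D2:**
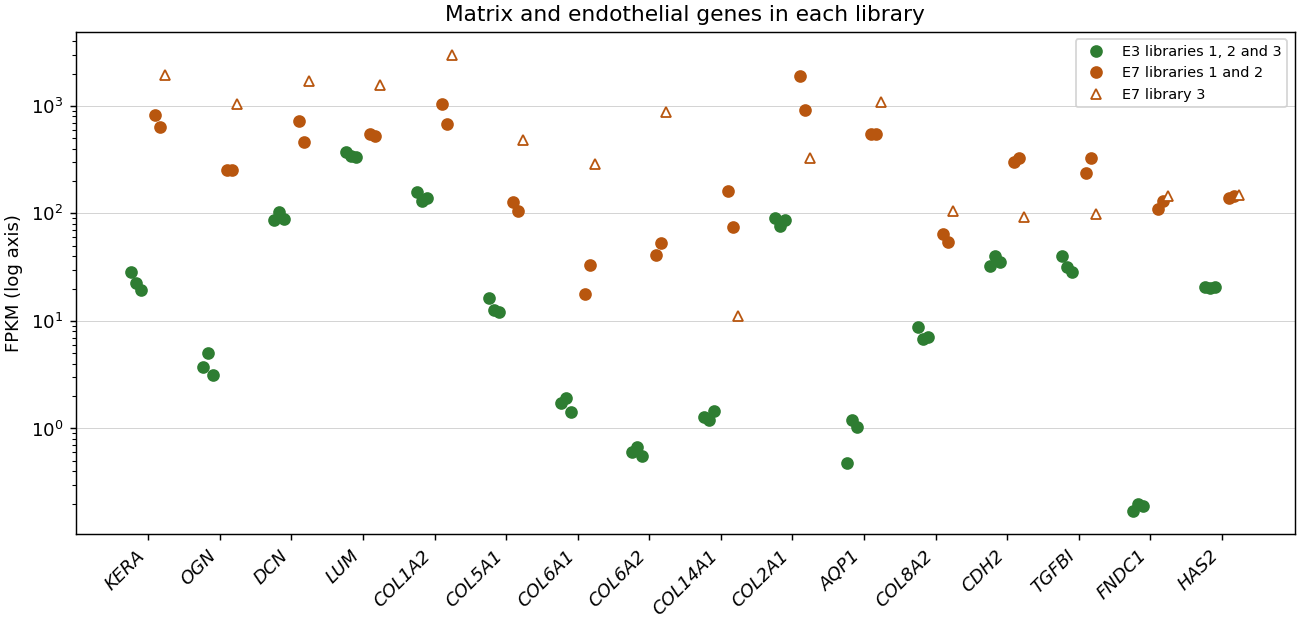
FPKM on a log axis in each E3 library (green) and each E7 library (orange, with E7 library 3 as an open triangle) for 16 matrix and endothelial genes. KERA, OGN, DCN, the type I, V and VI collagen genes and AQP1 are highest in E7 library 3, COL14A1, COL2A1, CDH2 and TGFBI are lowest there among the E7 libraries, and FNDC1 and HAS2 are close in all 3 E7 libraries.

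Most collagen genes rose as well. Of the 25 genes listed, 22 were tested, of which 14 (63.6%) rose and 2 (9.09%) fell, with a median log2 fold change of 3.39. The type VI chain COL6A1 read 1.74, 1.91 and 1.43 FPKM at E3 and 17.7, 33.3 and 290.4 at E7 and rose (log2 fold change 6.27 ± 1.33, adjusted p = 0.00876, and 4.02 with adjusted p = 0.00852 without E7 library 3). COL5A1, the chain of type V collagen that starts fibrils and keeps them thin, read 16.3, 12.6 and 12 FPKM at E3 and 127, 105 and 483 at E7 and rose (log2 fold change 4.31 ± 0.79, adjusted p = 0.00478, and 3.20 with adjusted p = 0.00554 without E7 library 3). COL1A2, a chain of type I collagen, the main fibril of the stroma, was mentioned after its values were seen. It read 157, 129.8 and 139 FPKM at E3 and 1032, 677 and 2972 at E7 and rose (log2 fold change 3.63 ± 0.70, adjusted p = 0.00586, and 2.69 with adjusted p = 0.00816 without E7 library 3). E7 library 3 was the highest for these chains of types I, V and VI. COL16A1, a fibril-associated collagen, read 2.88, 2.69 and 2.76 FPKM at E3 and 40.3, 30 and 101 at E7 and rose (log2 fold change 4.53 ± 0.67, adjusted p = 0.00184, and 3.76 with adjusted p = 0.00226 without E7 library 3), in the same order. COL14A1, another fibril-associated collagen, read 1.28, 1.2 and 1.45 FPKM at E3 and 162, 74.9 and 11.2 at E7 and rose (log2 fold change 6.09 ± 1.26, adjusted p = 0.00803, and 6.60 with adjusted p = 0.00465 without E7 library 3). COL2A1, the fibril collagen that the embryonic chick cornea shares with cartilage, read 90.8, 75.8 and 86.7 FPKM at E3 and 1888, 922 and 325 at E7 and rose (log2 fold change 3.74 ± 0.73, adjusted p = 0.00612, and 4.16 with adjusted p = 0.00337 without E7 library 3). In COL14A1 and COL2A1 the order was turned, with E7 library 3 the lowest of the E7 libraries and still above every E3 library.

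Collagens of sheet-like membranes were less uniform. COL8A2, a chain of the type VIII collagen of Descemet's membrane, read 8.76, 6.84 and 7.14 FPKM at E3 and 64.3, 54.2 and 105 at E7 and rose (log2 fold change 3.45 ± 0.29, adjusted p = 0.000136). Its partner chain COL8A1 read 0.98, 1.41 and 0.81 FPKM at E3 and 0.71, 1.25 and 7.7 at E7 and did not pass the test (log2 fold change 1.79 ± 0.98, adjusted p = 0.192, and -0.01 with adjusted p = 0.992 without E7 library 3). Among the E7 libraries, COL8A1 was above the E3 libraries in library 3 alone. In the E5 libraries COL8A1 read 6.4, 3.36 and 1.01 FPKM. Leaving out library 3 of both E7 and E5 gave the same log2 fold change of -0.01 for it (adjusted p = 0.991). COL4A1, a chain of the basement membrane collagen, read 18.1, 17.7 and 19.4 FPKM at E3 and 8.65, 7.23 and 13.6 at E7 and fell (log2 fold change -0.75 ± 0.24, adjusted p = 0.0423), a call lost without E3 libraries 1, 2 or 3, E5 libraries 1 or 2 or E7 libraries 1 or 2 (adjusted p up to 0.123). COL9A3, a chain of a fibril-associated collagen known from cartilage, read 5.96, 6.33 and 5.81 FPKM at E3 and 1.01, 0.77 and 1.24 at E7 and fell (log2 fold change -2.44 ± 0.23, adjusted p = 0.000243). All E7 libraries were below all E3 libraries for both. COL1A1 was not analysed here. The list's summed CPM was 2746 to 3036 in the E3 libraries and 22200, 14160 and 35210 in the E7 libraries. With E7 library 3 left out, 13 members rose and 3 fell.

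Genes for the enzymes that modify, fold and crosslink collagen rose too. Of the 26 genes listed, 21 were tested, of which 15 (71.4%) rose and 2 (9.52%) fell, with a median log2 fold change of 1.52. P4HA3, a catalytic subunit of prolyl 4-hydroxylase, read 5.41, 3.62 and 4.55 FPKM at E3 and 62.7, 68.7 and 159 at E7 and rose (log2 fold change 4.58 ± 0.55, adjusted p = 0.00073, and 3.96 with adjusted p = 0.000766 without E7 library 3). SERPINH1, the collagen chaperone HSP47, read 53, 30.9 and 41.5 FPKM at E3 and 168, 121 and 292 at E7 and rose (log2 fold change 2.37 ± 0.45, adjusted p = 0.00524). PLOD1, a lysyl hydroxylase, read 37.9, 37 and 39.1 FPKM at E3 and 153, 122 and 219 at E7 and rose (log2 fold change 2.27 ± 0.29, adjusted p = 0.000995). All 3 were highest in E7 library 3. PLOD2, the lysyl hydroxylase of telopeptides, read 28.5, 31.1 and 28.7 FPKM at E3 and 232, 222 and 163 at E7 and rose (log2 fold change 2.94 ± 0.15, adjusted p = 1.56e-05), with E7 library 3 the lowest of the E7 libraries. The prolyl 3-hydroxylase P3H2 read 9.95, 10.2 and 12.1 FPKM at E3 and 0.17, 0.49 and 0 at E7 and fell (log2 fold change -5.51 ± 1.38, adjusted p = 0.017, and -4.96 with adjusted p = 0.0308 without E7 library 3), a call lost without E3 library 3 or E7 library 1 (adjusted p up to 0.0538). Its E7 libraries were all below 1 FPKM. ADAMTS14, a procollagen N-proteinase, read 9.89, 6.92 and 8.17 FPKM at E3 and 3.07, 3 and 5.11 at E7 and fell (log2 fold change -1.0 ± 0.29, adjusted p = 0.0312), a call lost without E3 libraries 1 or 3 or E7 libraries 1 or 2 (adjusted p up to 0.098). ADAMTS2, another procollagen N-proteinase, read 0.21, 0.16 and 0.11 FPKM at E3 and 0.34, 0.33 and 32.1 at E7 and did not pass the test (log2 fold change 6.30 ± 2.36, adjusted p = 0.0716, and 1.18 with adjusted p = 0.68 without E7 library 3). Among the E7 libraries ADAMTS2 was high in library 3 alone, and the E5 libraries read 30.3, 19.3 and 0.17 FPKM. In the fit without E7 library 3, 14 members rose and 2 fell.

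Most matricellular proteins, hyaluronan genes and matrix proteases rose, and no member was called lower in the fit of all libraries. Of the 35 genes listed, 30 were tested, of which 18 (60%) rose and none fell, with a median log2 fold change of 2.29. The matrix metalloproteinase MMP27 read 0.07, 0.06 and 0.06 FPKM at E3 and 21, 16.5 and 28.1 at E7 and rose (log2 fold change 8.48 ± 0.51, adjusted p = 2.47e-05). ADAMTS5, a protease that cleaves aggrecan-family proteoglycans, read 0.18, 0.25 and 0.19 FPKM at E3 and 8.41, 6.21 and 3.31 at E7 and rose (log2 fold change 4.97 ± 0.44, adjusted p = 0.000158). Both were below 1 FPKM in each E3 library. Fibulin 5 (FBLN5), which organizes elastic fibres, read 21, 21 and 17.3 FPKM at E3 and 376, 345 and 246 at E7 and rose (log2 fold change 4.16 ± 0.22, adjusted p = 1.56e-05). HAS2, the synthase of the hyaluronan that swells the early stroma, read 20.6, 20.2 and 20.5 FPKM at E3 and 140.3, 144 and 149 at E7 and rose (log2 fold change 2.96 ± 0.13, adjusted p = 6.14e-06). TGFBI (keratoepithelin), an integrin-binding protein abundant in cornea, read 39.9, 32.1 and 28.4 FPKM at E3 and 238, 326 and 97.8 at E7 and rose (log2 fold change 2.84 ± 0.66, adjusted p = 0.0129, and 3.17 with adjusted p = 0.0104 without E7 library 3), a call lost without E3 libraries 2 or 3 (adjusted p up to 0.0537). The E7 libraries lay above the E3 libraries in all of these, closely grouped for HAS2 and spread for TGFBI.

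In some members of this group the E7 libraries lay on both sides of the E3 libraries. Periostin (POSTN), a matricellular protein of fibroblasts, read 20.7, 22 and 24.1 FPKM at E3 and 1.68, 1.88 and 52.6 at E7 (log2 fold change -0.01 ± 1.39, adjusted p = 0.996, and -3.44 with adjusted p = 0.0666 without E7 library 3), and thrombospondin 4 (THBS4) read 143, 154 and 122 FPKM at E3 and 55.5, 45.6 and 300.3 at E7 (log2 fold change 0.12 ± 0.85, adjusted p = 0.924, and -1.36 with adjusted p = 0.17 without E7 library 3). In both, E7 libraries 1 and 2 were below every E3 library and E7 library 3 was above every one. The hyaluronan and proteoglycan link protein HAPLN3 read 10.7, 8.77 and 11.4 FPKM at E3 and 11.2, 11.7 and 96 at E7. Among the E7 libraries it was set apart in library 3 alone (log2 fold change 2.14 ± 0.99, adjusted p = 0.131, and 0.25 with adjusted p = 0.805 without E7 library 3). Tenascin C (TNC), a protein of migrating and healing tissue, read 0.94, 1.16 and 0.67 FPKM at E3 and 7.54, 22.6 and 1.41 at E7, highest in E7 library 2 (log2 fold change 3.61 ± 1.27, adjusted p = 0.059, and 4.13 with adjusted p = 0.0349 without E7 library 3). None of these 4 passed the test. E7 library 3 departed in 13 of the 30 tested members (7 above, 6 below), and 18 members rose and none fell without it. Without library 3 of both E7 and E5, 20 rose and 2 fell, with THBS4 among the falls.

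Basement membrane genes rose more often than all tested genes and fell about as often. Of the 24 genes listed, 21 were tested, of which 9 (42.9%) rose and 3 (14.3%) fell, with a median log2 fold change of 0.64, against 17.3% and 16.4% of all tested genes. COL4A4, a chain of the type IV collagen of specialized membranes, read 0, 0 and 0 FPKM at E3 and 10.8, 4.45 and 2.1 at E7 and was at least 650-fold higher at E7 in counts summed over the group (adjusted p = 0.00126). Dystroglycan (DAG1), a laminin receptor, read 25.9, 22.8 and 27.9 FPKM at E3 and 74.5, 51.6 and 65 at E7 and rose (log2 fold change 1.46 ± 0.20, adjusted p = 0.00124). Perlecan (HSPG2), a heparan sulfate proteoglycan, read 28.2, 20.8 and 26.8 FPKM at E3 and 48.7, 46 and 50.2 at E7 and rose (log2 fold change 1.08 ± 0.14, adjusted p = 0.00103). All E7 libraries were above all E3 libraries for these 3. Of the laminin alpha chains, LAMA5 read 2.65, 2.21 and 2.99 FPKM at E3 and 16.5, 12.2 and 12.2 at E7 and rose (log2 fold change 2.52 ± 0.17, adjusted p = 4.37e-05). LAMA4 read 22.7, 22.7 and 21.9 FPKM at E3 and 0.15, 0.41 and 1.78 at E7 and fell (log2 fold change -4.67 ± 0.95, adjusted p = 0.00739, and -6.18 with adjusted p = 0.00312 without E7 library 3). LAMA1 read 37.8, 37.4 and 34 FPKM at E3 and 17.9, 18.8 and 20.6 at E7 and fell (log2 fold change -0.79 ± 0.15, adjusted p = 0.00492). The groups were apart for each chain, above for LAMA5 and below for the other 2. Nidogen 2 (NID2), a linker of laminin and type IV collagen, read 49.3, 42.1 and 51.2 FPKM at E3 and 16, 22.6 and 23.9 at E7 and fell (log2 fold change -1.05 ± 0.17, adjusted p = 0.00277). Nephronectin (NPNT), an integrin ligand, read 6.96, 8.62 and 6.84 FPKM at E3 and 14.5, 10.8 and 538 at E7 and did not pass the test (log2 fold change 4.86 ± 1.88, adjusted p = 0.0794, and 0.86 with adjusted p = 0.626 without E7 library 3). Among the E7 libraries NPNT was high in library 3 alone. The counts without E7 library 3 were 9 higher and 3 lower.

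Genes of the corneal endothelium's pump, transport and junctions did not rise as a group at this stage. Of the 30 genes listed, 23 were tested, of which 4 (17.4%) rose and 3 (13%) fell, with a median log2 fold change of -0.03, shares close to those of all tested genes. N-cadherin (CDH2), the cadherin of corneal endothelium, read 32.6, 39.9 and 35.5 FPKM at E3 and 299, 329 and 92 at E7 and rose (log2 fold change 2.85 ± 0.64, adjusted p = 0.0107, and 3.22 with adjusted p = 0.00641 without E7 library 3). CDH2 was lowest of the E7 libraries in E7 library 3, and AQP1, given above, was another of the rises. The beta subunit of the sodium pump, ATP1B1, read 16.2, 16.8 and 18.7 FPKM at E3 and 22.8, 23.4 and 11.9 at E7. It did not pass the test (adjusted p = 0.578), and E7 library 3 was below the E3 libraries. SLC4A11, the transporter mutated in human endothelial dystrophies, read 1.11, 1.04 and 1.18 FPKM at E3 and 0.69, 0.65 and 0.76 at E7 (log2 fold change -0.54 ± 0.27, adjusted p = 0.16). It was near 1 FPKM or below throughout. SLC4A4 was not analysed here.

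Carbonic anhydrase 2 (CA2), which supplies the bicarbonate of the endothelial pump, fell. It read 103, 87 and 105 FPKM at E3 and 5.3, 5.18 and 0.12 at E7 (log2 fold change -4.68 ± 1.27, adjusted p = 0.023, and -4.13 with adjusted p = 0.0306 without E7 library 3), a call lost without E3 libraries 1, 2 or 3 or E7 libraries 1 or 2 (adjusted p up to 0.0625). Carbonic anhydrase 9 (CA9) read 33.9, 36 and 27 FPKM at E3 and 18.2, 11 and 9.82 at E7 and fell (log2 fold change -1.18 ± 0.35, adjusted p = 0.0322), a call lost without E3 libraries 1, 2 or 3 or E7 libraries 2 or 3 (adjusted p up to 0.0988). TJP1 (ZO-1) read 21.6, 25.4 and 21.5 FPKM at E3 and 12.8, 11.1 and 8.63 at E7 and fell (log2 fold change -0.95 ± 0.25, adjusted p = 0.0198), a call lost without E3 library 2 or E7 libraries 2 or 3 (adjusted p up to 0.0699). Every E7 library was below every E3 library for these 3 genes, with E7 library 3 the lowest. They were the list's 3 falls, of which 0 or 1 was called with any 1 of the E3 libraries left out or without E7 library 2 or 3. Red blood cells also hold carbonic anhydrase 2, and the summed CPM of the erythroid list was 3081 to 3548 in the E3 libraries and 276, 125 and 67 in the E7 libraries. Its part in the fall of CA2 was not tested. 4 members of the pump and junction list rose and 1 fell without E7 library 3, and without library 3 of both E7 and E5, 7 rose and 5 fell.

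Most of the periocular transcription factors fell, while a small set rose. Of the 30 genes listed, 28 were tested, of which 5 (17.9%) rose and 16 (57.1%) fell, with a median log2 fold change of -1.70. LMX1B, a LIM homeobox factor of the periocular mesenchyme, read 45, 46 and 39.1 FPKM at E3 and 154, 189 and 97.4 at E7 and rose (log2 fold change 1.89 ± 0.30, adjusted p = 0.00263). The T-box factor TBX2 read 6.15, 4.8 and 4.86 FPKM at E3 and 74.2, 78.2 and 80.7 at E7 and rose (log2 fold change 4.02 ± 0.13, adjusted p = 2.18e-06). All E7 libraries were above all E3 libraries for both. The AP-2 factor TFAP2B, of the crest and its derivatives, read 27.5, 25.5 and 30.1 FPKM at E3 and 214, 223 and 241 at E7 and rose (log2 fold change 3.26 ± 0.15, adjusted p = 7.44e-06). Its relative TFAP2E read 12.5, 7.1 and 10.3 FPKM at E3 and 90.3, 105 and 105 at E7 and rose (log2 fold change 3.46 ± 0.21, adjusted p = 2.49e-05). In these 4 rises E7 library 3 lay within 1 log2 unit of the range of the other E7 libraries. TFAP2A, the AP-2 gene of ectoderm and crest, read 21.3, 18.6 and 18.5 FPKM at E3 and 28.2, 22.9 and 7.82 at E7 and did not pass the test (log2 fold change 0.17 ± 0.53, adjusted p = 0.831, and 0.54 with adjusted p = 0.405 without E7 library 3). E7 library 3 was below the E3 libraries and the other E7 libraries above them.

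Among the factors that fell, the forkhead genes FOXD1, FOXD2 and FOXL2 and the homeobox gene SIX2 went to near 0. FOXD1 read 14.8, 14.8 and 16.1 FPKM at E3 and 0.16, 0.04 and 0.09 at E7 and fell (log2 fold change -7.27 ± 0.55, adjusted p = 8e-05). FOXD2 read 30.7, 30.5 and 36.9 FPKM at E3 and 0.22, 0.68 and 0.52 at E7 and fell (log2 fold change -5.91 ± 0.33, adjusted p = 1.96e-05). FOXL2, a factor of the periocular mesenchyme and eyelid, read 27.2, 26.3 and 34.6 FPKM at E3 and 0.18, 0.39 and 0.47 at E7 and fell (log2 fold change -6.20 ± 0.62, adjusted p = 0.000305). No E7 library reached 1 FPKM for these 3. SIX2 read 41.6, 32 and 39.5 FPKM at E3 and 1.21, 0.63 and 0 at E7 and fell (log2 fold change -5.83 ± 1.09, adjusted p = 0.00499, and -5.28 with adjusted p = 0.00656 without E7 library 3). FOXC1 was not analysed here. The T-box factor TBX18 read 5.82, 5.06 and 5.72 FPKM at E3 and 0.2, 0.28 and 5.51 at E7 and did not pass the test (log2 fold change -1.27 ± 1.32, adjusted p = 0.49, and -4.39 with adjusted p = 0.0336 without E7 library 3). Only E7 libraries 1 and 2 were low for it. MSX2, a homeobox target of BMP, read 36.8, 26 and 32.3 FPKM at E3 and 3.35, 6.28 and 0.65 at E7 and did not pass the test (log2 fold change -3.09 ± 1.16, adjusted p = 0.0717, and -2.61 with adjusted p = 0.141 without E7 library 3), although all E7 libraries were below the E3 libraries. With E7 library 3 left out, 5 members of the list rose and 17 fell.

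**Figure D3:**
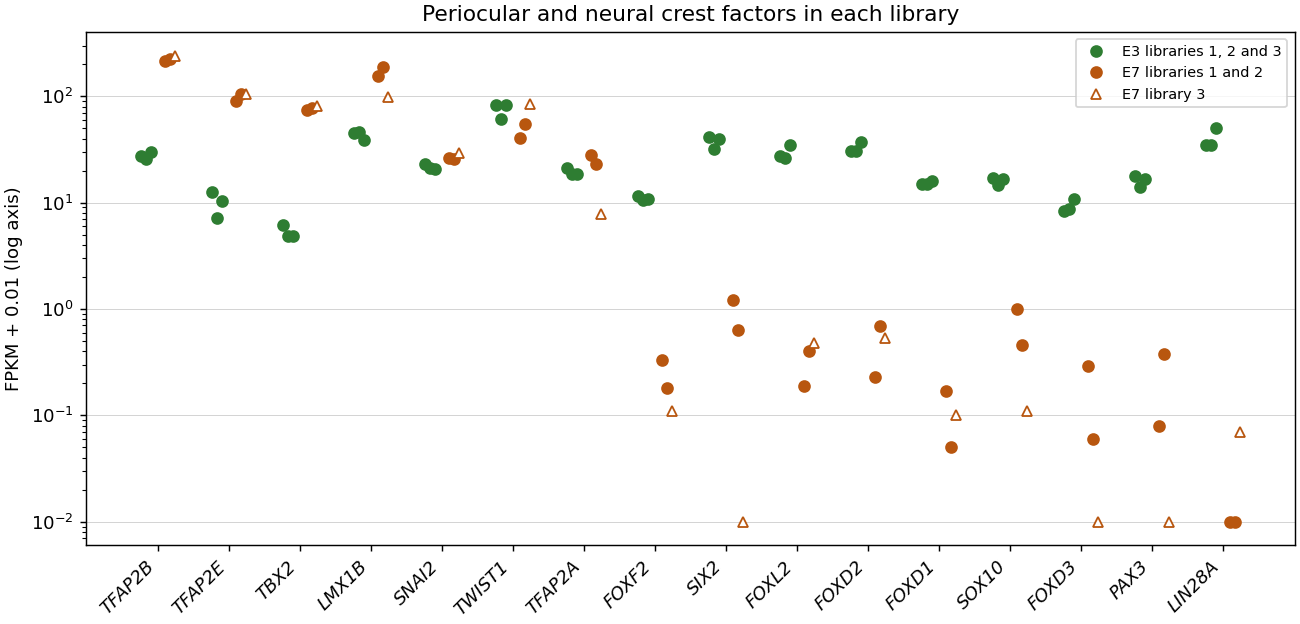
FPKM plus 0.01 on a log axis in each E3 library (green) and each E7 library (orange, with E7 library 3 as an open triangle) for 16 periocular and neural crest factors, so that a gene listed at 0 sits at 0.01. The libraries of a stage lie close together for TFAP2B, TFAP2E and TBX2, which are higher at E7, while FOXF2, SIX2, FOXL2, FOXD2, FOXD1, SOX10, FOXD3, PAX3 and LIN28A drop to 1.21 FPKM or less in every E7 library.

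Neural crest genes fell more often than they rose. Of the 34 genes listed, 34 were tested, of which 5 (14.7%) rose and 15 (44.1%) fell, with a median log2 fold change of -0.72. PAX3, a crest and somite factor, read 17.8, 14.1 and 16.6 FPKM at E3 and 0.07, 0.37 and 0 at E7 and fell (log2 fold change -6.52 ± 0.88, adjusted p = 0.00128). FOXD3 fell (log2 fold change -6.31 ± 0.98, adjusted p = 0.0023). SOX10 fell (log2 fold change -4.83 ± 1.12, adjusted p = 0.0124, and -4.35 with adjusted p = 0.0222 without E7 library 3). All 3 were at 1 FPKM or below in every E7 library. SOX5, a partner of the SOXE factors, read 7.49, 2.94 and 5.3 FPKM at E3 and 0.06, 0.28 and 0 at E7 and fell (log2 fold change -5.21 ± 1.13, adjusted p = 0.00956). LIN28B, the paralogue of LIN28A, read 77.5, 82.1 and 87.7 FPKM at E3 and 7.99, 8.47 and 0.23 at E7 and did not pass the test (log2 fold change -3.80 ± 1.34, adjusted p = 0.0599, and -3.24 with adjusted p = 0.078 without E7 library 3). The E7 libraries lay below the E3 libraries in each of these.

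The 5 members of the crest list given next were not called lower. SNAI2, a repressor of epithelial cadherins, read 23.2, 21.1 and 20.8 FPKM at E3 and 26.4, 25.9 and 29 at E7, and TWIST1, a factor of mesenchyme, read 82.8, 61.7 and 82.5 FPKM at E3 and 40.4, 55.3 and 84.3 at E7. Neither passed the test, at adjusted p = 0.0672 and 0.684, and E7 libraries 1 and 2 of TWIST1 lay below the E3 libraries. Cadherin 11 (CDH11), the cadherin of migrating crest and mesenchyme, read 145, 154 and 127 FPKM at E3 and 353, 400.2 and 327 at E7 and rose (log2 fold change 1.48 ± 0.11, adjusted p = 8.48e-05). The GTPase RHOB read 27.8, 20.6 and 24.8 FPKM at E3 and 106, 139 and 84.5 at E7 and rose (log2 fold change 2.30 ± 0.28, adjusted p = 0.000796). The neurotrophin receptor NGFR read 13, 10.3 and 13 FPKM at E3 and 20.7, 28.4 and 20.4 at E7 and rose (log2 fold change 1.07 ± 0.18, adjusted p = 0.00344). For these 3 all E7 libraries exceeded all E3 libraries.

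In 3 receptors of the list, chosen after their values were seen, E7 library 3 differed from E7 libraries 1 and 2. The endothelin receptor EDNRB read 10.2, 12.1 and 9.82 FPKM at E3 and 0.21, 0.31 and 24.6 at E7 and did not pass the test (log2 fold change -0.15 ± 1.67, adjusted p = 0.955, and -5.22 with adjusted p = 0.0571 without E7 library 3). Without library 3 of both E7 and E5 the log2 fold change of EDNRB was -5.21, with adjusted p = 7.34e-05. Integrin alpha 4 (ITGA4) read 33.3, 35.7 and 33.8 FPKM at E3 and 8.11, 9.49 and 35.7 at E7 (log2 fold change -0.77 ± 0.70, adjusted p = 0.427, and -1.86 with adjusted p = 0.0496 without E7 library 3). The platelet-derived growth factor receptor PDGFRA read 37.5, 30.1 and 29.9 FPKM at E3 and 18.7, 24.2 and 85.6 at E7 (log2 fold change 0.62 ± 0.71, adjusted p = 0.531, and -0.42 with adjusted p = 0.626 without E7 library 3). In each of the 3, E7 libraries 1 and 2 were below every E3 library, and E7 library 3 was at or above the E3 libraries. E7 library 3 departed in 13 of the 34 tested members (6 above, 7 below). Without it 6 members rose and 15 fell, and without library 3 of both E7 and E5, 6 rose and 22 fell. Without E7 library 1, 3 rose.

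Among genes of retinoic acid, the vitamin A derivative that patterns the periocular mesenchyme, enzymes of synthesis and of breakdown both rose. Of the 21 genes listed, 15 were tested, of which 4 (26.7%) rose and 3 (20%) fell, with a median log2 fold change of 0.43. These shares were not far from the 17.3% and 16.4% of all tested genes. The synthetic enzyme ALDH1A2 read 29.5, 28.9 and 22.3 FPKM at E3 and 553, 488 and 238 at E7 and rose (log2 fold change 4.11 ± 0.39, adjusted p = 0.000242). DHRS3, which returns retinal to retinol, read 7.59, 9.5 and 9.63 FPKM at E3 and 73.6, 83.9 and 54.1 at E7 and rose (log2 fold change 2.93 ± 0.16, adjusted p = 1.68e-05). CYP26B1, which degrades retinoic acid, read 1.99, 2.1 and 1.83 FPKM at E3 and 28.2, 35.6 and 3.95 at E7 and rose (log2 fold change 3.64 ± 1.0, adjusted p = 0.0242, and 4.13 with adjusted p = 0.0112 without E7 library 3), a call lost without E3 libraries 1, 2 or 3 or E7 libraries 1 or 2 (adjusted p up to 0.0836). All 3 were lowest in E7 library 3, and CYP26B1 there was near the E3 level. CRABP1, the cellular binding protein of retinoic acid, read 543, 571 and 664 FPKM at E3 and 4.76, 9.1 and 29.8 at E7 and fell (log2 fold change -5.17 ± 0.79, adjusted p = 0.00221, and -6.29 with adjusted p = 0.00101 without E7 library 3). The E7 libraries were all far below the E3 libraries for it. In the fit without E7 library 3, 5 members rose and 2 fell. Without E3 library 2 or 3, 2 rose, and 1 fell with any 1 of the E3 libraries left out or without E7 library 2.

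WNT ligands were among the largest rises, and nuclear effectors of the pathway fell. Of the 42 genes listed, 35 were tested, of which 14 (40%) rose and 7 (20%) fell, with a median log2 fold change of 0.39. WNT9A read 0.44, 0.2 and 0.15 FPKM at E3 and 76.1, 65.2 and 60.8 at E7 and rose (log2 fold change 8.15 ± 0.28, adjusted p = 2.18e-06). Dickkopf 2 (DKK2), a secreted WNT modulator of the periocular mesenchyme, read 1.94, 2.3 and 1.31 FPKM at E3 and 245, 236 and 163 at E7 and rose (log2 fold change 6.99 ± 0.28, adjusted p = 4.67e-06). Both were high in all 3 E7 libraries, as WNT6 was. LEF1, a partner of beta-catenin on DNA, read 12.2, 10.2 and 15.4 FPKM at E3 and 4.01, 5.19 and 4.48 at E7 and fell (log2 fold change -1.32 ± 0.21, adjusted p = 0.00233). Its relative TCF7L2 read 7.39, 10.2 and 8.48 FPKM at E3 and 4.6, 4.02 and 2.45 at E7 and fell (log2 fold change -1.11 ± 0.20, adjusted p = 0.00417). The receptor FZD4 read 7.99, 10.3 and 10.3 FPKM at E3 and 2.42, 1.91 and 0.42 at E7 and fell (log2 fold change -2.48 ± 0.73, adjusted p = 0.0323, and -2.04 with adjusted p = 0.0547 without E7 library 3), a call lost without E3 libraries 1, 2 or 3 or E7 libraries 2 or 3 (adjusted p up to 0.0841). The groups did not overlap in any of these 5 genes. The secreted inhibitor WIF1 read 4.39, 6.18 and 6.08 FPKM at E3 and 0.76, 1.25 and 1.36 at E7 and fell (log2 fold change -2.15 ± 0.36, adjusted p = 0.00304). WNT7B, an epithelial ligand, read 0.05, 0 and 0.08 FPKM at E3 and 5.62, 3.84 and 0 at E7 and did not pass the test (69.7-fold higher at E7 in counts summed over the group, with an exact 95% counting interval of 23.3 to 343, adjusted p = 0.0587, and 0.0259 without E7 library 3). Like WNT9B it was highest in E7 library 1 and at or near 0 in E7 library 3, the order of the summed epithelial markers, whose part in it was not tested. The counts without E7 library 3 were 15 higher and 5 lower, and 9 were higher without E3 library 3.

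Fibroblast growth factor genes, a list of ligands, receptors and feedback inhibitors, rose more often than they fell. Of the 30 genes listed, 22 were tested, of which 10 (45.5%) rose and 2 (9.09%) fell, with a median log2 fold change of 1.10. FGF9 read 0, 0.06 and 0.11 FPKM at E3 and 10.2, 4.11 and 35.4 at E7 and was 256-fold higher at E7 in counts summed over the group, with an exact 95% counting interval of 87.1 to 1250 (adjusted p = 0.00334, and 0.0046 without E7 library 3). FGF16, of the same subfamily, read 0.27, 0 and 0.15 FPKM at E3 and 22.7, 14.7 and 25.9 at E7 and rose (log2 fold change 7.27 ± 0.65, adjusted p = 0.000175). FGF7, the mesenchymal ligand for epithelial receptors, read 4.06, 0.47 and 1.7 FPKM at E3 and 17.2, 8.2 and 20.6 at E7 and rose (log2 fold change 3.13 ± 0.68, adjusted p = 0.00933). All 3 ligands were highest in E7 library 3 and apart from the E3 libraries in every E7 library. SPRY4, a feedback inhibitor induced by the pathway, read 2, 0.89 and 1.34 FPKM at E3 and 7.87, 5.35 and 20.1 at E7 and rose (log2 fold change 3.13 ± 0.69, adjusted p = 0.00995, and 2.15 with adjusted p = 0.0159 without E7 library 3). The receptor FGFR2 read 148, 126 and 118 FPKM at E3 and 21, 26.7 and 9.29 at E7 and fell (log2 fold change -2.65 ± 0.43, adjusted p = 0.00279). FGFR3 read 32.2, 25.2 and 24.1 FPKM at E3 and 2.97, 2.97 and 0.31 at E7 and fell (log2 fold change -3.59 ± 1.08, adjusted p = 0.0346, and -3.09 with adjusted p = 0.0577 without E7 library 3), a call lost without E3 libraries 1, 2 or 3 or E7 libraries 1, 2 or 3 (adjusted p up to 0.0858). Both receptors were below the E3 libraries in every E7 library and lowest in E7 library 3. FGFR1 read 70.1, 60.9 and 66.7 FPKM at E3 and 62.3, 69.7 and 87.2 at E7 and did not pass the test (log2 fold change 0.28 ± 0.15, adjusted p = 0.174). The ligands FGF3, FGF4 and FGF18 were at 0 in every E7 library. Their E3 levels are not given, and the E7 libraries held fewer counts than the E3 libraries, so this is not by itself a fall. The same holds for genes said below only to be at 0 in every E7 library. 10 members rose and 1 fell without E7 library 3, and 1 fell with any 1 of the E3 or E7 libraries left out.

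TGF-beta and BMP genes moved in both directions. Of the 37 genes listed, 30 were tested, of which 9 (30%) rose and 8 (26.7%) fell, with a median log2 fold change of 0.15. TGFB2, the TGF-beta ligand of the anterior segment, read 1.95, 2.05 and 2.35 FPKM at E3 and 69.9, 66.2 and 54.8 at E7 and rose (log2 fold change 5.04 ± 0.16, adjusted p = 2.18e-06). LTBP1, which holds latent TGF-beta in the matrix, read 34.1, 39.7 and 40.6 FPKM at E3 and 139, 146 and 295 at E7 and rose (log2 fold change 2.50 ± 0.40, adjusted p = 0.00252, and 2.0 with adjusted p = 0.00295 without E7 library 3). Its relative LTBP2 read 3.33, 3.5 and 3.81 FPKM at E3 and 13.7, 15.1 and 23.9 at E7 and rose (log2 fold change 2.46 ± 0.24, adjusted p = 0.000274). The E7 libraries lay above the E3 libraries in all 3. BMP5 read 9.54, 7.18 and 8.1 FPKM at E3 and 0.22, 0.34 and 0.21 at E7 and fell (log2 fold change -4.70 ± 0.59, adjusted p = 0.000876). The co-receptor TGFBR3 read 13.8, 15.1 and 13.7 FPKM at E3 and 2.79, 2.4 and 3.32 at E7 and fell (log2 fold change -2.18 ± 0.26, adjusted p = 0.000727). ID1, a gene induced by BMP signalling, read 253, 248 and 323 FPKM at E3 and 60.1, 80.8 and 48.3 at E7 and fell (log2 fold change -1.99 ± 0.20, adjusted p = 0.000279). The E7 libraries lay below the E3 libraries in these 3. BMP4 read 1.59, 1.53 and 2.06 FPKM at E3 and 9.36, 11.7 and 0.46 at E7 and did not pass the test (log2 fold change 2.16 ± 1.44, adjusted p = 0.28, and 2.71 with adjusted p = 0.168 without E7 library 3), with E7 library 3 below the E3 libraries. With E7 library 3 left out, 8 members rose and 7 fell.

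Genes of the insulin-like growth factor and platelet-derived growth factor systems rose more often than they fell. Of the 25 genes listed, 20 were tested, of which 8 (40%) rose and 1 (5%) fell, with a median log2 fold change of 0.99. HTRA1, a secreted protease, read 11.9, 8.99 and 9.85 FPKM at E3 and 179, 187 and 329.8 at E7 and rose (log2 fold change 4.66 ± 0.36, adjusted p = 8.75e-05). IGFBP2, which binds insulin-like growth factors, read 3.58, 3.76 and 4.52 FPKM at E3 and 47.1, 36.2 and 80.6 at E7 and rose (log2 fold change 3.94 ± 0.45, adjusted p = 0.000586). Both were highest in E7 library 3. The ligand PDGFA read 1.81, 1 and 0.85 FPKM at E3 and 46.2, 23.7 and 12 at E7 and rose (log2 fold change 4.60 ± 0.69, adjusted p = 0.00194). PDGFD read 7.48, 8.78 and 5.77 FPKM at E3 and 22.2, 18.6 and 40.8 at E7 and rose (log2 fold change 2.05 ± 0.39, adjusted p = 0.00555). IGF2BP3, an RNA-binding protein of embryonic tissue, read 182, 195 and 181 FPKM at E3 and 67, 72.1 and 50.9 at E7 and was the 1 member called lower (log2 fold change -1.43 ± 0.13, adjusted p = 0.000192). The E7 and E3 libraries did not overlap in any of the 5. In the fit without E7 library 3, 8 members rose and 2 fell.

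Guidance genes rose more often than all tested genes and fell about as often. Of the 48 genes listed, 42 were tested, of which 13 (31%) rose and 7 (16.7%) fell, with a median log2 fold change of 0.50, against 17.3% and 16.4% of all tested genes. SLIT2, a repulsive ligand, read 4.33, 5.5 and 4.16 FPKM at E3 and 24.4, 19.1 and 21.1 at E7 and rose (log2 fold change 2.34 ± 0.14, adjusted p = 2.6e-05). EFNB1, a membrane ligand of Eph receptors, read 66.8, 63.1 and 70.8 FPKM at E3 and 271, 327 and 146 at E7 and rose (log2 fold change 2.0 ± 0.38, adjusted p = 0.00558). Both were above the E3 libraries in every E7 library. EPHA3, a receptor for ephrin-A ligands, read 50.5, 61.8 and 47.7 FPKM at E3 and 2.24, 2.34 and 0.26 at E7 and fell (log2 fold change -4.89 ± 0.85, adjusted p = 0.00369, and -4.39 with adjusted p = 0.00383 without E7 library 3). UNC5C, a repulsive netrin receptor, read 7.33, 8.3 and 6.57 FPKM at E3 and 0.16, 0.07 and 0.26 at E7 and fell (log2 fold change -5.30 ± 0.47, adjusted p = 0.000169). SEMA3G, a secreted semaphorin, read 18, 18.4 and 23.4 FPKM at E3 and 1.34, 1.56 and 0.1 at E7 and fell (log2 fold change -4.19 ± 1.18, adjusted p = 0.027, and -3.67 with adjusted p = 0.0479 without E7 library 3), a call lost without E3 libraries 1, 2 or 3 or E7 libraries 1 or 2 (adjusted p up to 0.0726). No E7 library reached 3 FPKM in these 3. PLXNA2, a semaphorin co-receptor, read 4.35, 4.71 and 5.15 FPKM at E3 and 0.29, 0.49 and 6.03 at E7 and did not pass the test (log2 fold change -0.87 ± 1.20, adjusted p = 0.61, and -3.48 with adjusted p = 0.0444 without E7 library 3), and SEMA3E read 12.2, 10 and 7.73 FPKM at E3 and 2.47, 2.13 and 12.3 at E7 (log2 fold change -0.64 ± 0.78, adjusted p = 0.558, and -2.01 with adjusted p = 0.0467 without E7 library 3). E7 libraries 1 and 2 were below the E3 libraries for both and E7 library 3 was not. The counts without E7 library 3 were 12 higher and 9 lower, and 8 were higher without E3 library 2.

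Genes of the cell cycle and of DNA replication fell and none rose. Of the 40 genes listed, 35 were tested, of which none rose and 25 (71.4%) fell, with a median log2 fold change of -0.44, against 16.4% of all tested genes lower. The changes were small and even. Cyclin D3 (CCND3) read 12.1, 9.66 and 11.7 FPKM at E3 and 4.13, 4.21 and 4.13 at E7 and fell (log2 fold change -1.25 ± 0.17, adjusted p = 0.00133). Geminin (GMNN), an inhibitor of replication licensing, read 58, 61.4 and 58 FPKM at E3 and 25.6, 25.8 and 20.6 at E7 and fell (log2 fold change -1.18 ± 0.10, adjusted p = 0.000111). The E7 libraries of each gene lay close together, below the E3 libraries. ORC1, the largest subunit of the origin recognition complex, read 21.6, 19.9 and 23.1 FPKM at E3 and 9.8, 8.78 and 8.79 at E7 and fell (log2 fold change -1.10 ± 0.12, adjusted p = 0.000516). Cyclin E2 (CCNE2), which drives entry into S phase, read 20.6, 18.6 and 19.6 FPKM at E3 and 9.49, 8.95 and 8.27 at E7 and fell (log2 fold change -1.0 ± 0.08, adjusted p = 0.000126). These 2 showed the same, and E7 library 3 departed in only 1 of the 35 tested members, CCND2. MKI67, the proliferation antigen, read 59.5, 46.4 and 58 FPKM at E3 and 37.5, 23.7 and 51.8 at E7 and did not pass the test (log2 fold change -0.38 ± 0.33, adjusted p = 0.413). Without E7 library 3 none rose and 25 fell.

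Glycolytic and hypoxia genes rose at a share near that of all tested genes. Of the 30 genes listed, 26 were tested, of which 5 (19.2%) rose and 2 (7.69%) fell, with a median log2 fold change of -0.08. LDHA, the lactate dehydrogenase subunit that favours lactate, read 36, 47.1 and 56.2 FPKM at E3 and 189, 167 and 405 at E7 and rose (log2 fold change 2.61 ± 0.53, adjusted p = 0.00738, and 2.04 with adjusted p = 0.015 without E7 library 3). LDHA was highest in E7 library 3. TPI1, triosephosphate isomerase, read 509, 504 and 548 FPKM at E3 and 301, 340.1 and 276 at E7 and fell (log2 fold change -0.63 ± 0.09, adjusted p = 0.0018). PDK1, which inhibits pyruvate dehydrogenase, read 27.1, 29.9 and 29.3 FPKM at E3 and 15.1, 14.1 and 19.9 at E7 and fell (log2 fold change -0.67 ± 0.19, adjusted p = 0.0289), a call lost without E3 libraries 1, 2 or 3 or E7 libraries 1 or 2 (adjusted p up to 0.0872). The groups did not overlap in these 3 genes. GAPDH, the glycolytic dehydrogenase, read 2923, 2920 and 3024 FPKM at E3 and 2421, 2489 and 2398 at E7 and did not pass the test (log2 fold change -0.14 ± 0.08, adjusted p = 0.198). 4 members rose and 3 fell without E7 library 3, and without library 3 of both E7 and E5, 5 rose and 10 fell. The count of falls depends on the scaling: 7 members fell with library size alone, where 2578 of all tested genes did, and 8 and 9 by limma on log2(FPKM + 1) and log2(FPKM + 0.1), where 2874 and 2813 did. It was 1 with any 1 of the E3 libraries left out or without E7 library 1 or 2, and 3 members rose without E3 library 3.

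Contractile genes were higher in 8 members, with E7 library 3 nearest the E3 level. Of the 24 genes listed, 19 were tested, of which 8 (42.1%) rose and 1 (5.26%) fell, with a median log2 fold change of 0.50. Transgelin (TAGLN), an actin-binding protein of smooth muscle, read 4.17, 3.86 and 5.32 FPKM at E3 and 131, 157 and 50.8 at E7 and rose (log2 fold change 4.78 ± 0.63, adjusted p = 0.00112, and 5.11 with adjusted p = 0.000998 without E7 library 3). Smooth muscle actin (ACTA2), which marks contractile fibroblasts and smooth muscle, read 51.2, 54.5 and 54.6 FPKM at E3 and 345, 363 and 72.7 at E7 and rose (log2 fold change 2.39 ± 0.72, adjusted p = 0.0349, and 2.83 with adjusted p = 0.0132 without E7 library 3), a call lost without E3 libraries 1, 2 or 3 or E7 libraries 1 or 2 (adjusted p up to 0.105). Both were lowest of the E7 libraries in E7 library 3. The myosin light chain MYL6 read 166, 157 and 208 FPKM at E3 and 562, 492 and 378 at E7 and rose (log2 fold change 1.56 ± 0.22, adjusted p = 0.00145). Calponin 2 (CNN2) read 38.1, 35.2 and 40.5 FPKM at E3 and 94.7, 114 and 89.2 at E7 and rose (log2 fold change 1.52 ± 0.11, adjusted p = 7.18e-05). Both were again lowest of the E7 libraries in E7 library 3, and all E7 libraries were above every E3 library for the 4 genes. MYLK, the myosin light chain kinase, read 13.6, 12.5 and 10.9 FPKM at E3 and 31.8, 30.9 and 4.72 at E7 and caldesmon (CALD1) read 83.6, 94.4 and 80.7 FPKM at E3 and 196, 124 and 21.6 at E7, and neither passed the test, at adjusted p = 0.39 and 0.66, against 0.169 and 0.309 without E7 library 3, which lay below the E3 libraries in both. The list's summed CPM was 3802 to 4083 in the E3 libraries and 6769, 6737 and 3246 in the E7 libraries. With E7 library 3 left out, 7 members rose and 1 fell, and without library 3 of both E7 and E5, 13 rose and 1 fell. Without E3 library 1 or 2, 5 rose.

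**Figure D4:**
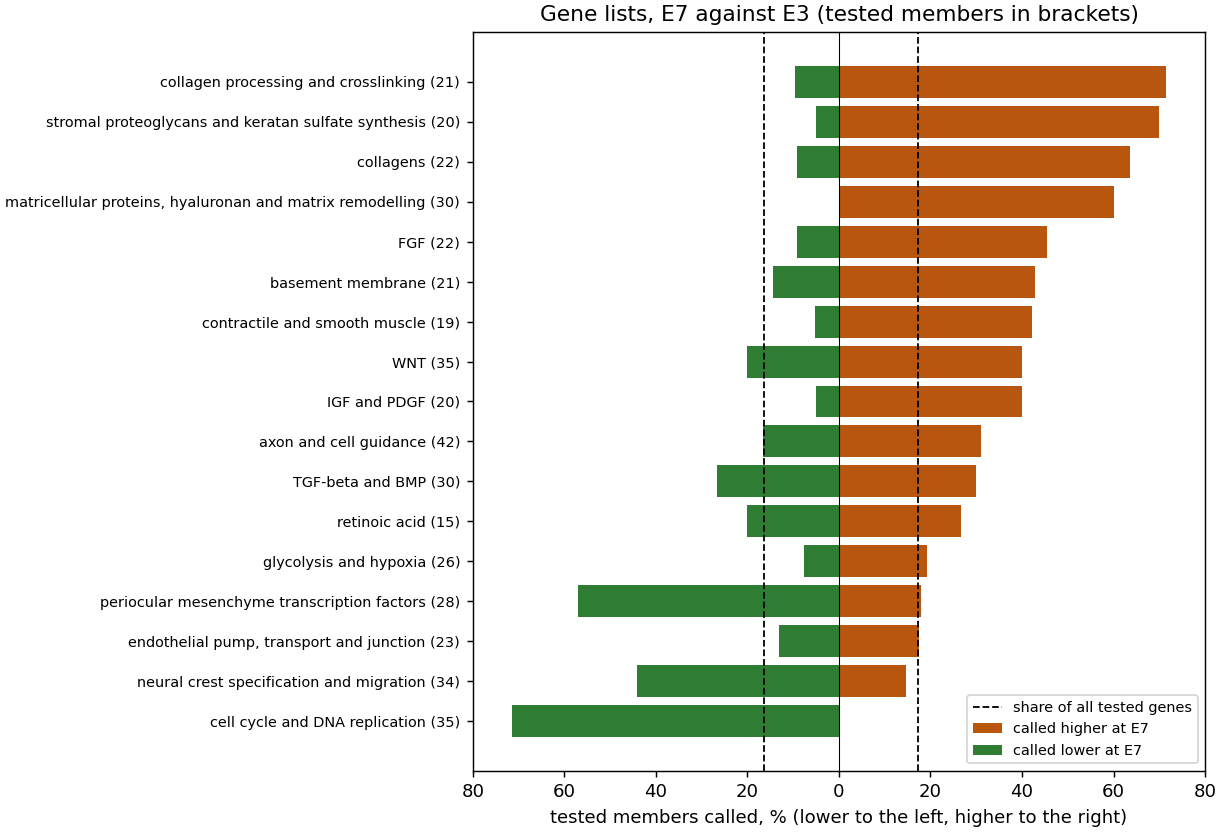
Share of each list's tested members called higher (orange, to the right) and lower (green, to the left) at E7 against E3, in percent, with the number of tested members in brackets and dashed lines at the shares of all tested genes, 17.3% higher and 16.4% lower. Collagen processing, proteoglycan, collagen and matricellular lists reach 60% to 71.4% higher, the cell cycle list 71.4% lower, and the endothelial pump list lies near both dashed lines. The lists were chosen with earlier results of these data known.

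Genes of other cell types that the dissected tissue could hold were followed as lists. Their shares, here and below, are to be read against 17.3% higher and 16.4% lower of all tested genes. Erythroid genes fell in all 9 tested members of 20 listed, with a median log2 fold change of -4.50, and the list's summed CPM was 3081 to 3548 in the E3 libraries and 276, 125 and 67 in the E7 libraries. The embryonic globin HBZ read 2791, 3037 and 2722 FPKM at E3 and 148, 19.9 and 0.44 at E7 and fell (log2 fold change -5.57 ± 1.67, adjusted p = 0.0338, and -5.0 with adjusted p = 0.0386 without E7 library 3), a call lost without E3 libraries 1, 2 or 3 or E7 library 2 (adjusted p up to 0.0964). HBA1, the alpha globin, read 878, 961 and 879.7 FPKM at E3 and 65.5, 11.3 and 6.34 at E7 and fell (log2 fold change -4.94 ± 1.10, adjusted p = 0.0105). Both globins were below the E3 libraries in every E7 library, and how reads of near-identical globin genes were shared is not known. Neither of these was at 0 in any library, while HBBA, another listed globin, was at 0 in every E3 library, not in every E7 library, and was not tested. Vascular endothelial genes fell in 11 of 21 tested members (52.4%) and rose in 2 (9.52%). Their summed CPM was 1013 to 1115 in the E3 libraries and 976, 1163 and 831 in the E7 libraries. The mean of log2(CPM + 1) over the listed vascular genes was lower in every E7 library. It was 4.84 to 5.05 in the E3 libraries and 2.74, 3.19 and 2.36 in the E7 libraries. KDR, the VEGF receptor of endothelium, read 13.8, 13.2 and 15.8 FPKM at E3 and 0.49, 0.88 and 0.1 at E7 and fell (log2 fold change -4.73 ± 1.18, adjusted p = 0.0166, and -4.26 with adjusted p = 0.0362 without E7 library 3), a call lost without E7 library 1 (adjusted p = 0.0519), and VE-cadherin (CDH5) read 35.6, 41.5 and 39.6 FPKM at E3 and 2.02, 3.17 and 0.08 at E7 and fell (log2 fold change -4.35 ± 1.38, adjusted p = 0.0416, and -3.80 with adjusted p = 0.0642 without E7 library 3), a call lost without E3 libraries 1, 2 or 3 or E7 libraries 1, 2 or 3 (adjusted p up to 0.101). The VEGF-C receptor FLT4 read 10.9, 9.9 and 8.31 FPKM at E3 and 78, 85.3 and 50 at E7 and rose (log2 fold change 3.0 ± 0.27, adjusted p = 0.000187). It and ERG, an ETS factor at 14.7, 17.8 and 16.9 FPKM at E3 and 25.7, 41.7 and 54.8 at E7 (log2 fold change 1.05 ± 0.31, adjusted p = 0.032), a call lost without E3 libraries 1, 2 or 3 or E7 libraries 2 or 3 (adjusted p up to 0.102), were the 2 rises. Without E7 library 3, 9 of the vascular members fell and 1 rose, with 7 falling with any 1 of the E3 libraries left out and 6 without E7 library 1.

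Markers of corneal epithelium and surface ectoderm, the layer over the stroma, were high in E7 libraries 1 and 2 and not in E7 library 3. Of the 27 genes listed, 20 were tested, of which 6 (30%) rose and none fell, with a median log2 fold change of 2.47. Summed CPM of the list was 171 to 173 in the E3 libraries and 1106, 601 and 113 in the E7 libraries, with 89.8, 67.1 and 496 in the E5 libraries, where library 3 was the highest. E-cadherin (CDH1) read 0.92, 1.18 and 0.92 FPKM at E3 and 20.9, 9.83 and 1.69 at E7 and rose (log2 fold change 3.53 ± 1.04, adjusted p = 0.0315, and 4.03 with adjusted p = 0.0137 without E7 library 3), a call lost without E3 libraries 1, 2 or 3 or E7 libraries 1 or 2 (adjusted p up to 0.101). P-cadherin (CDH3) read 9.17, 9.3 and 11.4 FPKM at E3 and 111, 57.4 and 14.5 at E7 and rose (log2 fold change 2.72 ± 0.84, adjusted p = 0.0372, and 3.18 with adjusted p = 0.0161 without E7 library 3), a call lost without E3 libraries 1, 2 or 3 or E7 libraries 1 or 2 (adjusted p up to 0.114). The eye factor PAX6 read 0, 0 and 0 FPKM at E3 and 5.55, 3.43 and 0 at E7, and EPCAM, an epithelial adhesion molecule, read 4.41, 3.34 and 4.16 FPKM at E3 and 72.5, 37.9 and 3.34 at E7. Neither passed the test, at adjusted p = 0.0514 and 0.0849, against 0.0244 and 0.0423 without E7 library 3. E7 library 3 departed in 17 of the 20 tested members (0 above, 17 below), and 12 members rose without it. Without library 3 of both E7 and E5, 16 rose and 1 fell, and without E5 library 3 alone 11 rose. The count of rises was 2 with any 1 of the E3 libraries left out, 3 without E7 library 1 or 2, 2 with a replicate block and 12 by DESeq2. PAX6, PKP1 and KRT75 were at 0 in every E3 library, and KRT75 in every E7 library too. The part of epithelial RNA in the other results was not tested.

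Leukocyte, glial, neuronal and cartilage genes were followed in the same way. Leukocyte genes rose in 1 (7.14%) and fell in 1 (7.14%) of 14 tested members. Their summed CPM was 76.8 to 83.7 in the E3 libraries and 132, 91.3 and 43.3 in the E7 libraries. The invariant chain CD74 was the riser, with 5.77, 4.6 and 4.83 FPKM at E3 and 52, 30.1 and 7.79 at E7 (log2 fold change 2.66 ± 0.70, adjusted p = 0.0205, and 3.10 with adjusted p = 0.00641 without E7 library 3), a call lost without E3 libraries 1, 2 or 3 or E7 library 1 (adjusted p up to 0.0759). Schwann cell and glial genes fell in 3 of 8 tested members (37.5%), and in 1 with any 1 of the E3 libraries, E7 library 1 or E7 library 2 left out. Their summed CPM was 153 to 168 in the E3 libraries and 294, 278 and 39.7 in the E7 libraries. The mean of log2(CPM + 1) over the listed genes was lower in every E7 library. It was 2.3 to 2.37 in the E3 libraries and 1.8, 1.65 and 1.09 in the E7 libraries. The fatty acid binding protein FABP7 read 105, 106 and 114 FPKM at E3 and 399, 380.4 and 41.3 at E7 and did not pass the test (log2 fold change 1.44 ± 0.99, adjusted p = 0.295, and 1.94 with adjusted p = 0.137 without E7 library 3). Its E7 library 3 was below the E3 libraries. Neuronal genes fell in 5 of 11 tested members (45.5%), and in 3 without E3 library 1. Their summed CPM was 53.9 to 60.5 in the E3 libraries and 25.6, 26.8 and 33.1 in the E7 libraries. STMN2 and ISL1 were at 0 in every E7 library. Cartilage genes rose in 3 (20%) and fell in 4 (26.7%) of 15 tested members. Their summed CPM was 583 to 666 in the E3 libraries and 10690, 5399 and 2601 in the E7 libraries. The rises were in the matrix genes EPYC, COL11A1 and COL2A1, the last a collagen that embryonic chick cornea shares with cartilage. The list's median log2 fold change was -0.19. Its mean of log2(CPM + 1) was 2.46 to 2.72 in the E3 libraries and 2.82, 2.75 and 2.53 in the E7 libraries. SOX9, the cartilage and crest factor, read 14.2, 8.84 and 8.63 FPKM at E3 and 2.54, 1.25 and 1.24 at E7 and fell (log2 fold change -2.52 ± 0.40, adjusted p = 0.00255), and COMP was at 0 in all 6 libraries.

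Lens and retina markers had low sums, and pigment and muscle markers had higher ones. Lens genes rose in 1 of 3 tested members (33.3%) of 21 listed, at a summed CPM of 5.76 to 7.92 in the E3 libraries and 7.64, 5.33 and 5.69 in the E7 libraries. Neural retina genes fell in 1 of 4 tested members (25%), at 8.27 to 11.3 in the E3 libraries and 4.87, 3 and 2.46 in the E7 libraries. NEUROD1, NEUROD4, PAX2 and PTF1A were at 0 in every E7 library. Pigmented epithelium and melanocyte genes rose in 1 of 9 tested members (11.1%), at 75.1 to 78.1 in the E3 libraries and 114, 126 and 78 in the E7 libraries. TRPM1 was at 0 in every E3 library. Skeletal myogenic genes rose in 1 (12.5%) and fell in 1 (12.5%) of 8 tested members, at 90.3 to 109.8 in the E3 libraries and 68.6, 94.3 and 47.3 in the E7 libraries. MYOG, MYL1 and CHRND were at 0 in every E7 library. Stress genes, followed as a sign of tissue handling, rose in 6 (35.3%) and fell in 5 (29.4%) of 17 tested members. The immediate early gene FOS read 27.8, 26.4 and 18.8 FPKM at E3 and 133, 172 and 56.7 at E7 and rose (log2 fold change 2.43 ± 0.35, adjusted p = 0.00162, and 2.75 with adjusted p = 0.000102 without E7 library 3), and EGR1 read 4.9, 3.23 and 2.8 FPKM at E3 and 26.8, 27 and 27.9 at E7 and rose (log2 fold change 3.04 ± 0.37, adjusted p = 0.00075). The heat shock genes HSPA8 and HSP90AA1 read 1444, 1255 and 1436 FPKM at E3 and 877, 825 and 617 at E7 and 1205, 957 and 1075 FPKM at E3 and 691, 518 and 460.0 at E7, and both fell, at adjusted p = 0.00815 and 0.00389. Of 65 ribosomal protein genes, 4 rose and 1 fell, with a median log2 fold change of 0.08. The part of these lists in the other results was not tested.

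**Figure D5:**
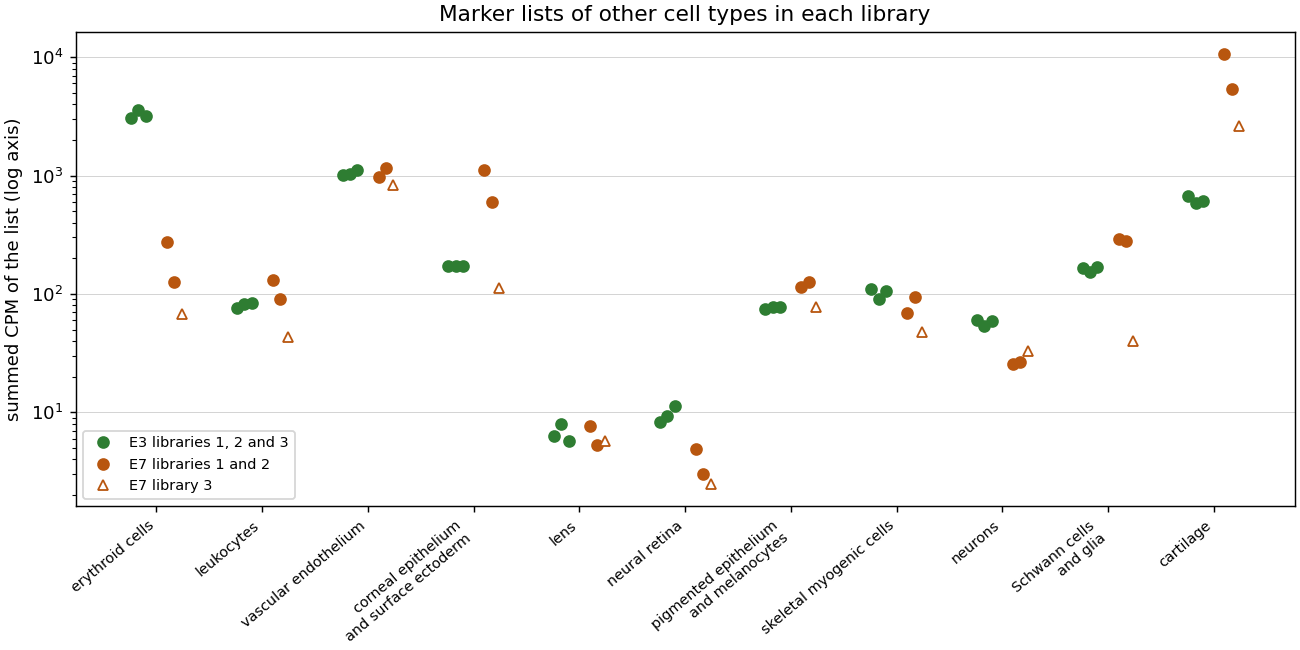
Summed CPM on a log axis of the tested and untested members of each marker list with an entry, for 11 other cell types, in each E3 library (green) and each E7 library (orange, with E7 library 3 as an open triangle). The erythroid sum falls from 3081 or more in the E3 libraries to 275.8 or less at E7, and the epithelial and glial sums are high in E7 libraries 1 and 2 and below the E3 libraries in E7 library 3. A sum follows its most abundant members, and the mean log2 level of the glial and of the vascular list was lower in every E7 library than at E3.

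E7 library 3 departed from E7 libraries 1 and 2 in 1608 genes, of which 420 were called between E7 and E3. In 571 of them (35.5%) it lay farther from the E3 mean than E7 libraries 1 and 2 on the same side, in 314 (19.5%) between them, and in 723 (45%) on the other side of the E3 mean. The genes farthest above were not called in the comparison. The chemokine CXCL14 read 1.04, 1.49 and 1.74 FPKM at E3 and 0.2, 0.39 and 107 at E7, and the E5 libraries read 112, 53.2 and 0.18 FPKM. The kinase subunit CAMK2A read 0.14, 0.63 and 0.66 FPKM at E3 and 0, 0.47 and 12.5 at E7, with 9.47, 9.88 and 0.29 FPKM in the E5 libraries. SP5, a zinc finger factor induced by WNT signalling, read 2.94, 2.58 and 4.17 FPKM at E3 and 0.29, 0.31 and 23.6 at E7, with 25.6, 17 and 0.57 FPKM in the E5 libraries. The acetylcholine receptor subunit CHRNA4 read 0.06, 0.15 and 0.16 FPKM at E3 and 0.57, 0.1 and 17 at E7, with 17.9, 13.3 and 0.22 FPKM in the E5 libraries. ADAMTS2 and EDNRB, given above, completed the 6 largest. Without E7 library 3 the log2 fold change went from 4.86 to -2.11 for CXCL14, from 3.38 to -0.90 for CAMK2A, from 1.52 to -3.36 for SP5 and from 5.67 to 1.35 for CHRNA4, with adjusted p from 0.128 to 0.717. In these genes E7 library 3 and E5 libraries 1 and 2 were high together, and E5 library 3 was low with E7 libraries 1 and 2.

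The genes farthest below showed the reverse for 5 of 6. VIT read 0.64, 0.4 and 14.4 FPKM in the E5 libraries and WNT9B 0.27, 0.13 and 11 FPKM, so that E5 library 3 alone among them approached the level of E7 libraries 1 and 2. SH3BGR, named for an SH3-binding region rich in glutamate, read 0, 0.04 and 0.08 FPKM at E3 and 44.6, 21.6 and 0.51 at E7, with 0.32, 0.04 and 13 FPKM in the E5 libraries, and was 514-fold higher at E7 in counts summed over the group, with an exact 95% counting interval of 175 to 2500 (adjusted p = 0.0301, and 0.0192 without E7 library 3), a call lost without E3 libraries 1, 2 or 3 or E7 libraries 1 or 2 (adjusted p up to 0.101). MOXD1, a monooxygenase of migrating crest, read 27.9, 28.2 and 30.1 FPKM at E3 and 19.6, 13 and 0.34 at E7, with 0.32, 0.09 and 10.1 FPKM in the E5 libraries, and did not pass the test (log2 fold change -1.28 ± 1.45, adjusted p = 0.529, and -0.72 with adjusted p = 0.714 without E7 library 3). HBZ read 0.76, 1.75 and 33.1 FPKM in the E5 libraries, highest in E5 library 3. BLCAP, at 6.76, 3.31 and 3.54 FPKM at E3 and 5.43, 15.9 and 0 at E7 and 5.01, 1.39 and 4.89 FPKM in the E5 libraries, showed no such order. Over the 1608 genes, E7 library 3 lay within 1 log2 unit of the mean of E5 libraries 1 and 2 in 1247 (77.5%, against 93.6% of all tested genes) and within 1 of E5 library 3 in 15.9%. The mean of E7 libraries 1 and 2 lay within 1 of E5 library 3 in 1329 (82.6%, against 93.8% of all tested genes) and within 1 of the mean of E5 libraries 1 and 2 in 18.8%. The departing genes were chosen on E7 library 3, so these shares describe them and test nothing. No label gives a reason, and an exchange of the 2 libraries, as any other reason, was not tested.

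By label, E7 against E5 sets endothelium with keratocytes against endothelium alone. Between them 0 of 11727 genes were called by edgeR (0%), with 279 (2.38%) at an unadjusted p below 0.05 and 11 called by DESeq2. Without library 3 of both E7 and E5, 2727 genes were called. That choice was made with the likeness of these 2 libraries to the other stage already known, and it is therefore no independent sign of a difference between the stages. Of the members named above, KERA read 1803, 1685 and 601 FPKM in the E5 libraries, COL6A2 895, 796 and 56.2 FPKM, CDH2 84.6, 116 and 395 FPKM and TGFBI 91.4, 86.1 and 415 FPKM. TFAP2B read 249, 281 and 226 FPKM and FNDC1 143, 202 and 156 FPKM. KERA and COL6A2 were highest in E5 libraries 1 and 2 and E7 library 3, and CDH2 and TGFBI in E5 library 3 and E7 libraries 1 and 2, while TFAP2B and FNDC1 stayed within a narrower range over the 6 corneal libraries.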

How the data were processed

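RNA-seq libraries of chick embryonic tissue were deposited by the authors as 1 table per library, with an expected count and an FPKM value per entry, per the file headers. Alignment used Bowtie2 and HISAT on the galGal5 build, per the submitters' processing notes, and the counting program, annotation and strand setting were not given in the sources used here, so reads of overlapping or antisense genes may be mixed. Entries were named by NCBI gene number or RefSeq accession. They were paired with symbols through a RefSeq gene table of another build, so no coordinates are given. Of 46855 entries, 7316 of 7356 gene numbers and 16602 accessions matched, and 22897 accessions did not and stayed out of the tests, leaving 14080 genes and 76.5% to 78.5% of each library's counts. An entry not listed in a library was taken as 0.

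Expected counts, as deposited, were summed per gene and rounded. All 9 libraries were fitted together in edgeR 4.0.16 (R 4.3.3) with TMM factors, library sizes over all entries, filterByExpr by group and the quasi-likelihood test. P-values were adjusted by Benjamini-Hochberg over 11727 genes, with a threshold of 0.05. FPKM, summed over a gene's entries, gives levels. A fold against a group at 0 is a lower bound with 3 counts over the group, and one against 1 to 3 counts has an exact 95% interval. Both divide the summed counts of a group by its summed library totals. Intervals and bounds cover counting error only. On counts simulated for the E7 to E3 comparison over 11727 genes, 72 of 100 genes changed 4-fold and 34 of 100 changed 2-fold were recovered, with 3 false calls. Each simulated library was drawn on its own, so none departed in many genes at once as E7 library 3 did. The recovery and false calls hold for such counts only.

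Named genes were the 10 largest changes in each direction with a mean of at least 10 FPKM in the higher group and no overlap of libraries, up to 4 called members per list and direction with at least 5 FPKM, 30 landmark genes, 27 of them tested, the 6 largest departures of E7 library 3 in each direction, and members that were not called, as values. The 29 lists hold 766 genes, of which 666 had an entry. Some members are counted with their lists and not reported singly here. Libraries, lists and rules were chosen with earlier results of these data known, among them the likeness of library 3 of E5 and of E7 to the other stage. DESeq2 1.42.0, limma 3.58.1, other scalings and filters, a replicate block and each library left out were tried as alternatives. No label says that equal replicate numbers pair the libraries. The deviations of same-numbered E3 and E7 libraries from their group means correlated at 0.02, 0.04 and -0.01. Those of same-numbered E5 and E7 libraries correlated at -0.35, -0.26 and -0.65. Deviations at E7 carry the departure of library 3 in many genes, so these values cannot decide whether equal numbers share a batch.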

Additional observations from a re-analysis of the deposited data

How the results depend on the processing

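With each library left out in turn, genes higher at E7 than at E3 numbered 1328 to 2328 and genes lower 1250 to 2150, and by at least 1 log2 unit 863 to 1337 and 435 to 645, each lowest without E3 library 2 and highest without E5 library 3. The count of genes between E7 and E5 was 0 to 1 in the same runs. By limma on log2(FPKM + 1), 678 genes were higher by 1 or more, a scale that understates the change of low genes. Between E7 and E5, DESeq2 called 11 genes, limma on log2(FPKM + 0.1) 1, and the fit without library 3 of both E7 and E5 2727, which has fewer libraries and was chosen with their likeness known. E7 library 3 departed by more than 2 log2 units in 689 genes. Of all calls between E7 and E3, 38.6% were higher with library size alone, 34.6% with limma at a pseudocount of 1 and 36% at 0.1, against 51.3%. Their median genes stood at -0.10, -0.09 and -0.12. Without library 3 of both E7 and E5 3 genes not called with them were called in the other direction, PDGFRA (-0.42), THBS4 (-1.36) and SP5 (-3.36), and CXCL14, CAMK2A and COL8A1 turned with no call in either fit. A replicate block, by numbers that no label says pair the libraries, gave 1464 genes higher and 1429 lower, and 914 and 425 by 1 or more. Of 420 genes followed, 255 were called, of which 192 stayed called under every alternative and the others lost the call in at least 1, none turning direction. Depth limits low genes most in E7 library 1, where 3 counts equal 0.304 CPM.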
